A study of Rattus norvegicus with 12 samples.

Results

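Il6, Ccl2, Cxcl1, Ccl20 and Nos2 are secreted signals of inflammation and the enzyme that makes nitric oxide during it, and their transcript levels were followed in fascicles of rat tail tendon, the thin collagen bundles between whose fibres the tendon cells lie. The members were the probes whose platform annotation carries one of these symbols: all 5 genes had a probe, each had 1, and these 5 were taken from 22517 probes on the array. Isolated fascicles were kept in vitro and were either stretched cyclically or left without strain, and total RNA was hybridised to Illumina bead arrays. The groups were strained fascicles at 24 h, unstrained fascicles at 24 h, strained fascicles at 1 h and unstrained fascicles at 1 h, with 3 arrays each and 12 in all. Every group was rat tail tendon in vitro, and no group of freshly taken tendon was analysed here. The sources used here do not give the breed, sex, age and number of the rats, the size and rate of the strain or the culture medium. Nothing in the labels ties the 3 arrays of a group to different rats or cultures. A p-value here therefore reflects the spread among those arrays, and that spread may be technical.

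IL-6 is a cytokine that signals through its receptor and the shared subunit gp130 to JAK kinases and the transcription factor STAT3. Chemokines draw leucocytes along a gradient: CCL2 acts on monocytes through CCR2, CXCL1 on neutrophils through CXCR2, and CCL20 on lymphocytes and dendritic cells through CCR6. NOS2, the inducible nitric oxide synthase, makes nitric oxide from arginine once its gene has been switched on. In many cell types these genes are induced by IL-1, TNF or bacterial products through NF-kB, and tendon cells in culture are known to make several of the products.

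The promoters were searched for the motif of NF-kB, through which these genes are known to be induced in many cell types. Its presence is therefore a description and is not independent of the choice of genes. RefSeq promoter sequences of assembly GRCr8 matched 3 of the 5 genes, Il6, Cxcl1 and Ccl20, and not Ccl2 and Nos2. The bases before the start that RefSeq's promoter table uses, 250 for Il6 and Cxcl1, are printed here 5′ to 3′ on the gene's strand, since all 3 hold the kappa B consensus, the motif of 10 bases that NF-kB binds, in capitals. Il6 lies on the minus strand at chr4:5894576-5894825, Cxcl1 on the minus strand at chr14:17479322-17479571, and Ccl20 on the plus strand at chr9:91836909-91837138. For Ccl20 only 230 bases are printed, because the RefSeq gene record starts 20 bases before the start in the promoter table.
Il6: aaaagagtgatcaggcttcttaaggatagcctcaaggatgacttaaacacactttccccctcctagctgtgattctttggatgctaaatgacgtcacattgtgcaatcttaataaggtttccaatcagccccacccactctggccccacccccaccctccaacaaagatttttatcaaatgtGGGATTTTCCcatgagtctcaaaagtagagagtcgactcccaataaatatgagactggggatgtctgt
Cxcl1: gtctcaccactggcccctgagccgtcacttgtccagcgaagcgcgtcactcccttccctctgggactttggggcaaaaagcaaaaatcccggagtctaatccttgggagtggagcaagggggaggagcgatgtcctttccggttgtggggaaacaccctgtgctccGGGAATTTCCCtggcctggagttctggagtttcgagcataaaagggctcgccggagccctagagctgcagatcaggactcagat
Ccl20: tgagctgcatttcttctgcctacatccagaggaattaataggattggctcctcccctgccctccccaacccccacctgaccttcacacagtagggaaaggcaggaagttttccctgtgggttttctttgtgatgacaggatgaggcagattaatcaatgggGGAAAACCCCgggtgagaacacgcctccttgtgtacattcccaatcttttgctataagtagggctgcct

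The search covered both strands of 300 bases, 250 before and 50 after the start in the promoter table, from which positions are counted with no base numbered 0. The kappa B consensus stood at -68 to -59 in Il6. In Cxcl1 it matched at -84 to -75 and, on the other strand with 1 base of shift, at -83 to -74, so that these matches overlap. In Ccl20 it matched on the other strand at -89 to -80. Of 33469 promoters of the same length, 7.51% held a match. The cAMP response element TGACGTCA, which reads the same on both strands, was found in Il6 at -162 to -155 and in 1.83% of all promoters. The C/EBP motif TTGCNNAA was found in Il6 at -152 to -145, on the other strand, and in 10.6% of all promoters. The AP-1 motif TGANTCA was present in 7.33% of all promoters and in these letters in no window of the 3 genes. A match is a string of letters and does not show that a factor was bound.

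Intensities are the authors' normalized values on a linear scale, with a median of 56.95, a lowest value of 33.71 and a highest of 14804.1 on each of the 12 arrays. Probes were kept for testing if their mean log2 intensity lay in the upper 50% of all probes, which left 11258. All 5 members passed, and all 5 would also have passed with any of the 4 groups left out of the mean. Over the whole probe set, correlations between log2 intensities were 0.922 to 0.960 for arrays of different times and 0.969 to 0.985 within a group. Between strained and unstrained arrays of the same time they were 0.964 to 0.986, much as within a group. At 1 h, the strained and the unstrained array of the same replicate number deviated together from their group means (r = 0.604, 0.537 and 0.521 over kept probes). Replicate 1 was the highest array for each of the 5 genes in both groups at 1 h. It was also the lowest for Col1a1, the main collagen chain of tendon, at 2413 intensity units in the strained and 1342 in the unstrained array, against 7469 and 11930.4 in the other strained and 6717 and 11930.4 in the other unstrained arrays.

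With time in culture, Ccl20 and Nos2 rose in unstrained fascicles, 13.8-fold and 4.37-fold. These were the only calls among the 5 genes in any of the 5 comparisons of the main fit, which had no replicate block. A gene was called when the Benjamini-Hochberg adjusted p of limma, which fits all 11258 kept probes together, was under 0.05. The share of all kept probes that was called for 24 h against 1 h was 17.2% in unstrained fascicles (9.83% higher and 7.42% lower) and 20.7% in strained fascicles (12.2% higher and 8.52% lower). For strained against unstrained fascicles it was 2.34% at 24 h (0.968% higher and 1.37% lower) and 0.0% at 1 h, and 0.0799%, all of them lower, for the difference between these strain effects. The 263 probes called for strain at 24 h became 69 without strained 24 h replicate 2 and 95 to 118 without strained 24 h replicate 3 or any unstrained 24 h array. The 1942 called for time in unstrained fascicles became 1227 without unstrained 24 h replicate 1, and the 9 of the difference became 15 or 16 without strained 1 h replicate 3 or unstrained 1 h replicate 1. Groups that did not overlap were counted too. Every strained array lay above every unstrained array for 3.91% of kept probes at 1 h and 11.2% at 24 h, and below for 3.9% and 9.34%. The 24 h arrays lay above all 1 h arrays for 18.2% of kept probes in unstrained and 19.4% in strained fascicles, and below for 15.5% and 15.0%. Among the 5 genes, that held for Ccl2 (higher with strain at 24 h) and for Il6, Ccl20 and Nos2 (higher at 24 h without strain). At 1 h the smallest adjusted p was 0.0768 and 552 probes had an unadjusted p under 0.05. With the replicate number as a block at 1 h, where the numbers paired the arrays, limma called 12 probes for strain at 1 h and 80 for the difference in place of 9, and none of the 5 genes was among them. These arrays measured RNA of whole fascicles, in which fewer cells of a type and less RNA per cell cannot be told apart.

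**Figure D1:**
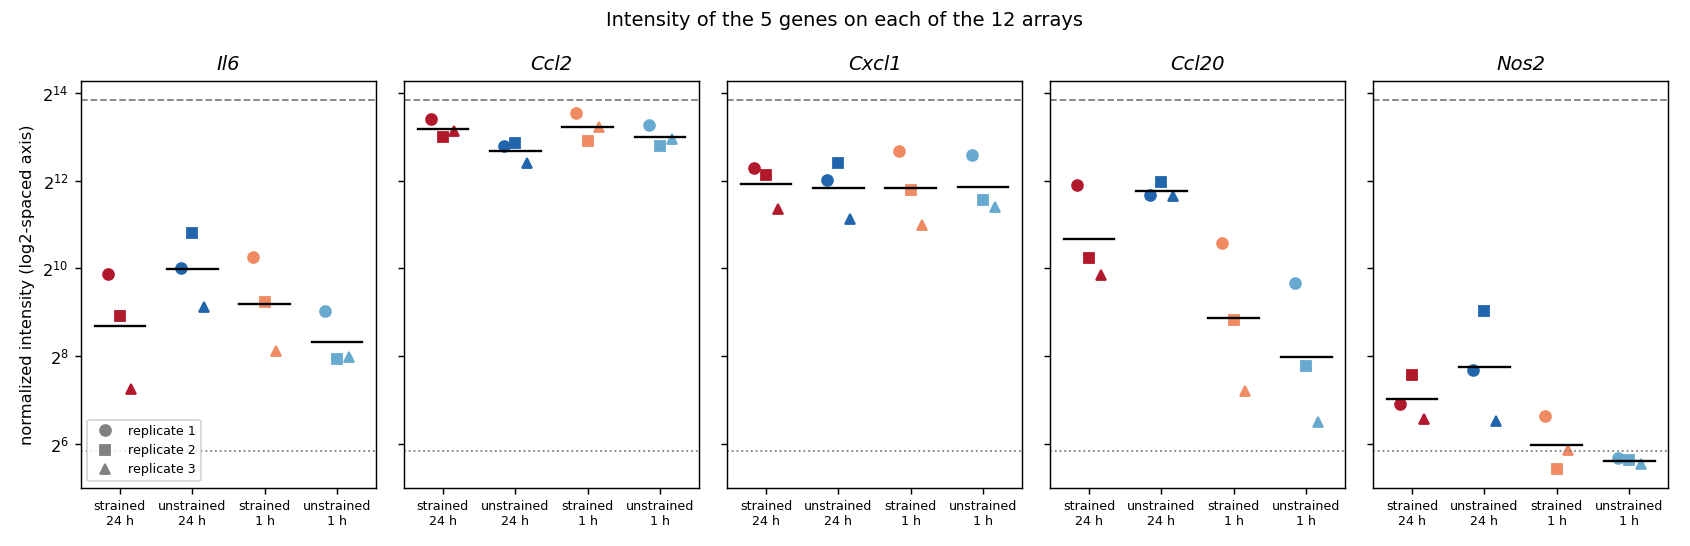
Normalized intensity on a log2-spaced axis for each of the 12 arrays, with marker shape for the replicate number, a black bar for the geometric mean of 3 arrays, a dotted line at the array median of 56.95 and a dashed line at the highest value of 14804.1. By geometric mean, Ccl20 and Nos2 are highest in unstrained fascicles at 24 h, but their single arrays overlap those of strained fascicles at 24 h. The Cxcl1 groups overlap throughout.

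Il6 was lower in strained than in unstrained fascicles at 24 h and higher at 1 h in the group means, but neither difference exceeded the spread between arrays. At 24 h, Il6 had 933, 484 and 153 intensity units in replicates 1, 2 and 3 of strained fascicles, against 1029, 1803 and 561 in unstrained fascicles. At 1 h, it had 1231, 598 and 277 units in strained fascicles, against 526, 243 and 251 in unstrained fascicles. Each strained array at 24 h lay below the unstrained array of its number and each at 1 h above it, yet the groups overlapped at both times. Same-numbered arrays at 24 h deviated together unevenly (r = 0.0387, 0.309 and 0.388), so pairing there was not assumed and is not excluded. Differently numbered strained and unstrained arrays at 24 h gave r = -0.391 to 0.0772. Each strained array correlated best with the unstrained array of its number. Unstrained replicate 1, however, correlated more with strained replicate 2 (0.0772) than with strained replicate 1. With a replicate block within each time, limma gave an adjusted p of 0.0235 for Il6 with strain at 24 h. The means were 523 ± 392 units in strained and 1131 ± 627 units in unstrained fascicles at 24 h, and 702 ± 485 units in strained and 339.8 ± 161 units in unstrained fascicles at 1 h (SD, n = 3 each).

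The log2 fold change of Il6 with strain was -1.31 ± 0.67 at 24 h (SE; 95% interval -2.76 to 0.15; limma adjusted p = 0.466) and 0.89 ± 0.67 at 1 h (-0.57 to 2.35; adjusted p = 0.991). The difference between these effects, 24 h minus 1 h, was -2.19 ± 0.95 on the log2 scale, with an unadjusted limma p of 0.0388 and an adjusted p of 0.562. Without single arrays, the strain effect at 24 h ranged from -1.90 (without strained 24 h replicate 1; adjusted p = 0.234) to -0.59 (without strained 24 h replicate 3; adjusted p = 0.850), and at 1 h from 0.36 (without strained 1 h replicate 1) to 1.43 (without strained 1 h replicate 3). Without strain, Il6 was 3.19-fold higher at 24 h than at 1 h, and all 3 arrays at 24 h lay above the 3 at 1 h, as 18.2% of kept probes did. The log2 fold change was 1.67 ± 0.67 (0.22 to 3.13), and the adjusted p of 0.115 did not pass. In strained fascicles the corresponding value was -0.52 ± 0.67 (-1.98 to 0.94; adjusted p = 0.668), and the groups overlapped. By geometric mean, Il6 was highest in unstrained fascicles at 24 h, then in strained fascicles at 1 h, strained fascicles at 24 h and unstrained fascicles at 1 h, and each neighbouring pair in that order overlapped.

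Ccl2, the monocyte attractant also called MCP-1, was bright on every array and varied little. In strained fascicles at 24 h the replicates had 10810.5, 8179 and 9013 intensity units, against 7096, 7469 and 5391 units in unstrained fascicles. At 1 h they had 11930.4, 7661 and 9511 units with strain, against 9905, 7096 and 7962 units without. At 24 h every strained array stood above every unstrained array, as for 11.2% of kept probes, and at 1 h the groups overlapped although strained was the higher in 3 of 3 same-numbered pairs. Ccl2 averaged 9334 ± 1345 units in strained and 6652 ± 1108 units in unstrained fascicles at 24 h (SD, n = 3 each). That difference was 0.49 ± 0.19 on the log2 scale (0.09 to 0.90), a 1.41-fold higher level, and its limma p of 0.0206 gave an adjusted p of 0.241. With a replicate block within each time, the limma adjusted p was 0.0266. The strain effect was 0.21 ± 0.19 at 1 h (-0.19 to 0.62; adjusted p = 0.991). Over time Ccl2 differed by -0.04 ± 0.19 in strained fascicles (-0.45 to 0.36; adjusted p = 0.914) and -0.32 ± 0.19 in unstrained fascicles (-0.73 to 0.08; adjusted p = 0.288). These intensities lay near the top of the scale, whose highest value was 14804.1 units. The groups ranked strained 1 h, strained 24 h, unstrained 1 h and unstrained 24 h by geometric mean, each overlapping the next.

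Cxcl1, a neutrophil attractant, showed no difference between the 4 groups larger than the spread between arrays. At 24 h it had 5009, 4489 and 2603 intensity units in strained fascicles, against 4133, 5391 and 2230.2 in unstrained fascicles. At 1 h it had 6595, 3557 and 2034 units in strained fascicles, against 6123, 3031 and 2713 in unstrained fascicles. The group means lay between 3918 and 4062 units, with SDs of 1266 to 2322 (n = 3 each). The log2 fold change was 0.08 ± 0.45 for strain at 24 h (-0.91 to 1.06), -0.03 ± 0.45 for strain at 1 h (-1.01 to 0.96), 0.10 ± 0.45 for time in strained fascicles (-0.89 to 1.08) and -0.01 ± 0.45 for time in unstrained fascicles (-0.99 to 0.98). The limma adjusted p-values were 0.983, 0.998, 0.918 and 0.995 in that order. These intervals leave room for changes of about 1 log2 unit in either direction. Leaving out single arrays turned the sign of each of these values, for example to 0.39 for strain at 1 h without strained 1 h replicate 3.

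Ccl20, the ligand of CCR6, rose with time in unstrained fascicles, and neither strain comparison passed the test. At 24 h the replicates had 3859, 1206 and 922 intensity units in strained fascicles, against 3279.5, 4004 and 3197 in unstrained fascicles. At 1 h they had 1522, 455 and 148 units in strained fascicles, against 813, 218 and 90.45 in unstrained fascicles. The unstrained 24 h arrays lay within 1.25-fold of each other, whereas the highest array exceeded the lowest 4.19-fold in strained fascicles at 24 h, 10.3-fold in strained fascicles at 1 h and 8.99-fold in unstrained fascicles at 1 h. Strained replicate 1 at 24 h lay inside the unstrained range and the other 2 strained arrays far below it.

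In unstrained fascicles Ccl20 averaged 3493 ± 444 units at 24 h and 374 ± 386 units at 1 h (SD, n = 3 each), with no overlap. The log2 fold change was 3.79 ± 0.86 (1.92 to 5.65; limma adjusted p = 0.00985), and it was the 8th largest of all kept probes. The size depended on single 1 h arrays, being 4.63 without unstrained 1 h replicate 1 (adjusted p = 0.00397) and 3.05 without unstrained 1 h replicate 3 (adjusted p = 0.0432). Ccl20 passed the test in all 12 fits that each left out 1 array. In strained fascicles the log2 fold change with time was 1.79 ± 0.86 (-0.07 to 3.66; adjusted p = 0.176) and the groups overlapped. Without strained 1 h replicate 1, the brightest of its group, it was 2.64 with an adjusted p of 0.0449. Strain gave -1.10 ± 0.86 at 24 h (-2.96 to 0.77; adjusted p = 0.729) and 0.89 ± 0.86 at 1 h (-0.97 to 2.76; adjusted p = 0.991). Without single arrays, these ranged at 24 h from -1.72 (without strained 24 h replicate 1; adjusted p = 0.519) to -0.69 (without strained 24 h replicate 3), and at 1 h from 0.044 (without strained 1 h replicate 1) to 1.74 (without unstrained 1 h replicate 1; adjusted p = 0.775). At 1 h the strained array was 1.87-fold, 2.09-fold and 1.64-fold higher than the unstrained array of its number, and with the replicate block at 1 h the SE was 0.39 and the adjusted p 0.572. The difference between the strain effects, -1.99 ± 1.21, had an adjusted p of 0.729. Geometric means ranked unstrained 24 h, strained 24 h, strained 1 h and unstrained 1 h, and neighbours overlapped.

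Nos2, the only enzyme of the set, was near the bottom of the scale at 1 h and rose in unstrained fascicles by 24 h. At 24 h it had 120.4, 189.95 and 94.5 intensity units in strained fascicles, against 204, 525 and 92.1 in unstrained fascicles. At 1 h it had 98.6, 42.8 and 58.0 units in strained fascicles, against 51.4, 49.7 and 46.4 in unstrained fascicles. All 3 unstrained arrays at 1 h lay below the array median of 56.95 units. Nos2 averaged 274 ± 225 units at 24 h and 49.2 ± 2.58 units at 1 h without strain (SD, n = 3 each), and these groups did not overlap. The log2 fold change was 2.13 ± 0.50 (1.04 to 3.21; limma adjusted p = 0.0120). It was 1.48 without unstrained 24 h replicate 2, the brightest array (adjusted p = 0.0301), and 2.74 without unstrained 24 h replicate 3, the dimmest of that group (adjusted p = 0.00156). After the lowest value of each array had been subtracted and 16 added, it was 2.61.

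In strained fascicles Nos2 differed between 24 h and 1 h by 1.05 ± 0.50 on the log2 scale (-0.04 to 2.14; adjusted p = 0.176), with overlapping groups. Strain gave -0.73 ± 0.50 at 24 h (-1.82 to 0.36; adjusted p = 0.656) and 0.35 ± 0.50 at 1 h (-0.74 to 1.44; adjusted p = 0.991). The value at 24 h was -0.084 without unstrained 24 h replicate 2 (adjusted p = 0.982) and -1.34 without unstrained 24 h replicate 3 (adjusted p = 0.193), and that at 1 h 0.02 without strained 1 h replicate 1 and 0.62 without strained 1 h replicate 2. At 24 h strained fascicles averaged 135 ± 49.4 units and unstrained fascicles 274 ± 225 units (SD, n = 3 each), and the 2 dimmest arrays of the 6 were the third replicates of both groups. The order by geometric mean was that of Ccl20, from unstrained 24 h to unstrained 1 h, again with overlap between neighbours. Whether time acted differently on these genes in strained and in unstrained fascicles is the same quantity as the difference between the strain effects, which was called for none of the 5. The time comparison and the strain comparison at 24 h share the 3 unstrained 24 h arrays, so a high value there raises the time effect and lowers the strain effect in the same step.

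**Figure D2:**
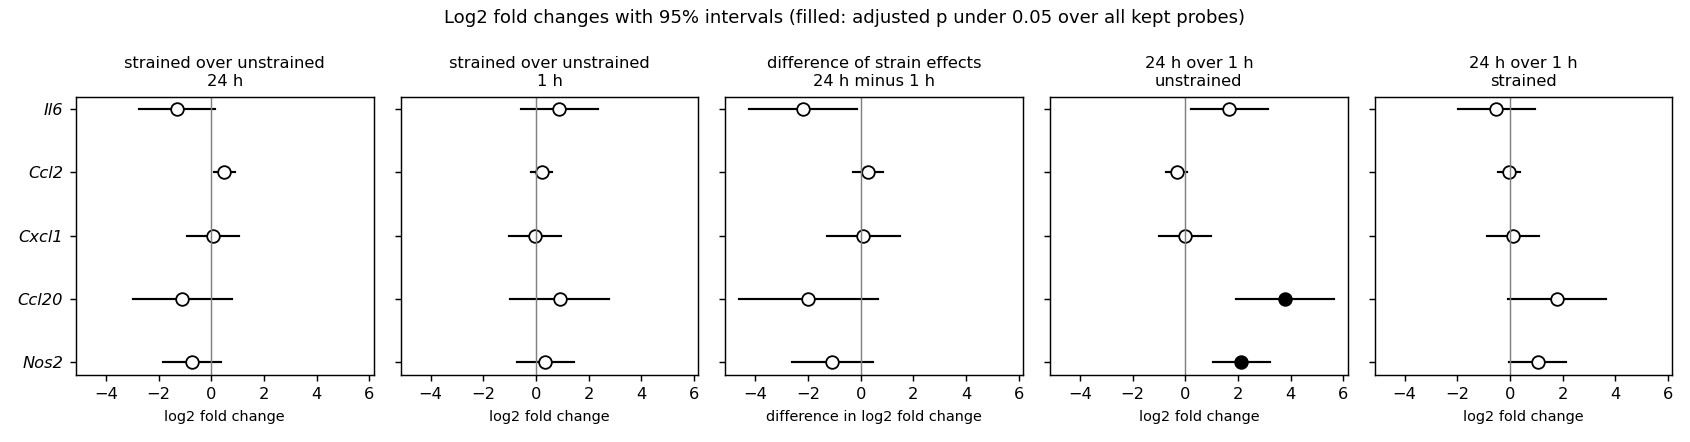
Log2 fold changes of the 5 genes in 5 comparisons as points with 95% intervals of limma, filled where the adjusted p over 11258 kept probes was under 0.05. Filled points are those of Ccl20 (3.79) and Nos2 (2.13) for 24 h over 1 h in unstrained fascicles, and among the open points the interval leaves out 0 for Ccl2 with strain at 24 h and for Il6 in the difference and in time without strain.

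The spread behind these results was wide. The standard errors of Il6, Cxcl1, Ccl20 and Nos2 were larger than those of at least 99.3% of kept probes, and that of Ccl2 than 86.4%, while the median SE of a log2 fold change was 0.12. A strain effect as large as 1.10 on Ccl20 was therefore not told apart from 0 with 3 arrays a group in the fit without a replicate block. With the block within each time, which also pairs the arrays at 24 h, its limma adjusted p was 0.0442. For strain at 1 h, the errors and intervals given for Il6, Ccl2, Cxcl1 and Nos2 come from the fit without a block. They leave out the accepted pairing and carry the spread between pairs. Over 21 alternative limma fits each, replicate blocks included, the lowest adjusted p at 1 h was 0.405 for Il6, 0.650 for Ccl2, 0.932 for Cxcl1 and 0.734 for Nos2.

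Other chemokine genes were followed from lists of CC and of CXC, CX3C and C chemokines. Of 10 kept genes in the CC list, 0 were called for strain at either time, against 2.34% of all kept probes at 24 h and 0.0% at 1 h. Called higher with time were 0 in strained fascicles (12.2% of all kept probes) and 1 in unstrained fascicles (9.83% of all kept probes). That was Ccl5, the T cell attractant RANTES, with 124, 193 and 108 intensity units at 24 h and 54.9, 56.9 and 60.2 at 1 h, higher by 1.26 ± 0.20 on the log2 scale (limma adjusted p = 0.00116). Strained fascicles at 24 h had 91.5, 83.2 and 68.9 units of Ccl5, all below the unstrained arrays. The difference of -0.76 ± 0.20 did not pass in the main fit (limma adjusted p = 0.0693). The 12 fits without 1 array gave adjusted p-values of 0.0510 to 0.216. Over all 20 alternative limma fits they ran from 0.00707 to 0.216, so the call depended on the model. This comparison of Ccl5 was chosen after its values were seen. The median log2 fold change of the CC list for strain at 24 h was -0.29, against 0.01 for all kept probes. Ccl7, a close relative of Ccl2, averaged 3001 ± 430 units in strained and 2402 ± 343 units in unstrained fascicles at 24 h (SD, n = 3 each; log2 fold change 0.32 ± 0.33, adjusted p = 0.829), and was likewise chosen after its values were seen.

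Of the 12 kept genes in the CXC, CX3C and C list, 2 fell with strain at 24 h and 0 rose, with a list median of -0.20. Among all kept probes, 1.37% were called lower and 0.968% higher. Pf4, the platelet chemokine CXCL4, had 788, 594 and 508 units in strained fascicles, against 1402, 1736 and 1553 in unstrained fascicles. Its log2 fold change was -1.33 ± 0.21 (adjusted p = 0.00831). Cxcl12, which holds CXCR4-bearing cells in tissues, had 54.3, 59.7 and 62.9 units in strained fascicles, against 96.2, 76.1 and 97.7 in unstrained fascicles, a log2 fold change of -0.60 ± 0.13 (adjusted p = 0.0357). The call of Cxcl12 was lost without any of strained 24 h replicates 1, 2 and 3 or unstrained 24 h replicates 1 and 3, at adjusted p-values of 0.0733 to 0.132. Of 8 kept macrophage markers, 1 was called for strain at 24 h, where 1.37% of all kept probes were called lower. Adgre1, the macrophage antigen F4/80, fell by 0.87 ± 0.13 on the log2 scale (adjusted p = 0.00619). All 8 lay below 0 at 24 h, with a median of -0.28, and at 1 h, with a median of -0.42 and 0 called, while 53.0% of all kept probes lay above 0 at 24 h and 49.6% at 1 h. The summed intensity of the 9 macrophage markers on the array was 1005 to 1035 units in strained and 1550 to 2072 units in unstrained fascicles at 24 h, against 513 units if each stood at the array median. Their part in the lower values of Pf4 and Cxcl12 was not tested. Nor was it tested for Il6, Nos2 and Ccl20, whose strain effects at 24 h were not called.

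With time in unstrained fascicles, 2 of these 12 genes rose and 0 fell, against 9.83% and 7.42% of all kept probes. Cxcl6, a neutrophil attractant, had 92.3, 79.9 and 85.5 units at 24 h and 47.5, 43.2 and 47.5 at 1 h, higher by 0.90 ± 0.10 on the log2 scale (limma adjusted p = 1.07e-04). In strained fascicles it was 0.46 ± 0.10 (adjusted p = 0.00475). Cxcl16, the ligand of CXCR6, rose by 1.61 ± 0.42 in unstrained fascicles (adjusted p = 0.0193) and 1.67 ± 0.42 in strained fascicles (adjusted p = 0.0132). Its call was lost without unstrained 1 h replicate 3, unstrained 24 h replicate 1 or unstrained 24 h replicate 2 for unstrained fascicles (adjusted p = 0.0616 to 0.0791), and without strained 24 h replicate 3 for strained fascicles (adjusted p = 0.0504). Pf4 fell by 1.08 ± 0.21 with time in strained fascicles (adjusted p = 0.00306). Cxcl2, a close relative of Cxcl1, differed by -0.60 ± 0.67 with time in unstrained fascicles (adjusted p = 0.620) and by -0.89 ± 0.67 in strained fascicles (adjusted p = 0.417), and was chosen after its values were seen.

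**Figure D3:**
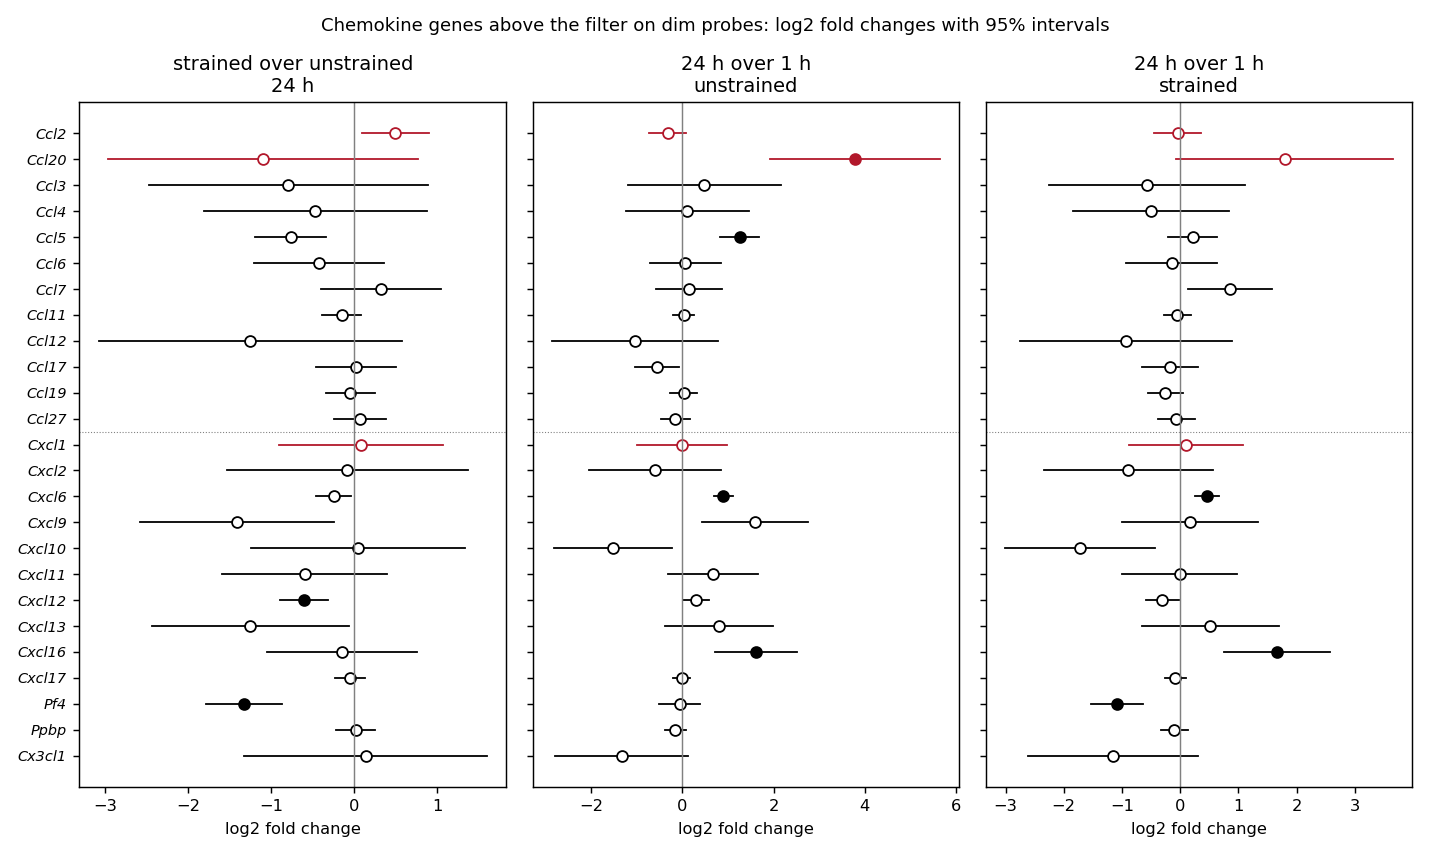
Log2 fold changes with 95% intervals for the 3 chemokine genes of the set (red) and the 22 other kept chemokine genes (black), CC genes above the dotted line and the rest below it, filled where the adjusted p was under 0.05. For strain at 24 h the filled points are Pf4 (-1.33) and Cxcl12 (-0.60), and for time in unstrained fascicles Ccl20 (3.79), Ccl5 (1.26), Cxcl6 (0.90) and Cxcl16 (1.61). For time in strained fascicles they are Cxcl6 (0.46), Cxcl16 (1.67) and Pf4 (-1.08).

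The receptors for CCL20, CXCL1 and CCL2 gave little signal. Of 16 chemokine receptor genes on the array, 9 were kept. Ccr6, the receptor for CCL20, lay between 51.6 and 63.0 units on all 12 arrays and Cxcr2, which binds CXCL1, between 52.0 and 69.6 units. Ccr2, the CCL2 receptor, was below the filter, at 52.6 to 59.8 units. All 3 ranges surround the array median. Ccr1, a receptor for CCL5, was the only receptor gene called in any comparison. It fell by 0.87 ± 0.20 with time in strained fascicles (limma adjusted p = 0.00782) and by 0.71 ± 0.20 in unstrained fascicles (adjusted p = 0.0272). Of all kept probes, 8.52% and 7.42% were called lower in these comparisons. The call in unstrained fascicles was lost without unstrained 1 h replicate 1 or 3 or unstrained 24 h replicate 1 or 3, at adjusted p-values of 0.0538 to 0.112. Ackr3, a scavenger of CXCL12, had 730, 294 and 184 units in strained and 832, 1020 and 685 units in unstrained fascicles at 24 h. Its log2 fold change of -1.29 ± 0.38 (adjusted p = 0.113) passed, among the 12 fits without 1 array, only without strained 24 h replicate 1, at -1.84 (adjusted p = 0.00576), and Ackr3 was chosen after its values were seen.

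In the IL-6 pathway, 12 of 13 genes on the array were kept, and 0 were called for strain at either time or for the difference. Of all kept probes, 2.34% were called for strain at 24 h, 0.0% at 1 h and 0.0799% for the difference. With time, 3 of the 12 were called lower in strained fascicles (8.52% of all kept probes) and 1 higher in unstrained fascicles (9.83%). Il6r, the receptor, averaged 79.7 ± 11.9 units in strained and 78.4 ± 1.83 units in unstrained fascicles at 24 h, and 115 ± 33.9 units in strained and 103 ± 18.2 units in unstrained fascicles at 1 h (SD, n = 3 each). Stat3, the transcription factor that IL-6 activates, had 161, 177 and 152 units in strained fascicles at 24 h, all below the 214, 226 and 242 units of unstrained fascicles. The log2 fold change was -0.48 ± 0.11 with an adjusted p of 0.0516, and 0.0248 without unstrained 1 h replicate 1; this comparison was chosen after its values were seen. With time in strained fascicles Stat3 fell by 0.85 ± 0.11 (adjusted p = 3.54e-04), and Socs1 and Socs2, which damp cytokine signals, by 0.49 ± 0.13 and 0.48 ± 0.13 (adjusted p = 0.0172 and 0.0187). The Socs1 call was lost without strained 1 h replicate 1 or strained 24 h replicate 1 or 2 (adjusted p = 0.0502 to 0.0640), and that of Socs2 without strained 1 h replicate 3 or strained 24 h replicate 1 (0.0676 and 0.0616). Jak2, a kinase of the pathway, rose by 1.65 ± 0.51 with time in unstrained fascicles (adjusted p = 0.0449). Its call was lost in 8 of the 12 fits without 1 array, at 0.0523 to 0.152: those without strained 1 h replicate 2, unstrained 1 h replicate 2 or 3, strained 24 h replicate 2 or 3, or any unstrained 24 h array.

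Of the other inflammatory cytokines, 12 of 16 genes on the array were kept and 1 was called. That call was for time in unstrained fascicles, where 9.83% of all kept probes were called higher. Csf3, the neutrophil growth factor G-CSF, had 86.3, 110.3 and 62.6 units at 24 h and 56.8, 47.7 and 48.7 units at 1 h in unstrained fascicles, higher by 0.73 ± 0.18 on the log2 scale (limma adjusted p = 0.0151). The call was lost without unstrained 1 h replicate 2 or 3 or unstrained 24 h replicate 1 or 2 (adjusted p = 0.0503 to 0.0552). Tnf, an inducer of all 5 genes in many cells, stood between 49.4 and 65.8 units on the 12 arrays, around the array median. Il1b, another inducer, had 418, 202 and 196 units in strained and 282, 400.3 and 423 units in unstrained fascicles at 24 h. Its log2 fold change was -0.51 ± 0.50 (adjusted p = 0.812), and this comparison was chosen after its values were seen.

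Around Nos2, 13 of 16 genes of nitric oxide synthesis and response on the array were kept, and 0 were called for strain. Among all kept probes, 2.34% were called for strain at 24 h and 0.0% at 1 h. With time in strained fascicles 2 genes were called higher and 2 lower, against 12.2% and 8.52% of all kept probes. In unstrained fascicles it was 1 higher and 1 lower, against 9.83% and 7.42%. Nos1, the neuronal synthase, lay between 54.0 and 68.0 units over the 12 arrays, and Nos3, the endothelial synthase, was below the filter at 41.4 to 54.5 units. Gch1 makes the cofactor tetrahydrobiopterin that the synthases need. In unstrained fascicles it had 274, 375 and 251 units at 24 h and 202, 105 and 86.8 units at 1 h, and it rose by 1.27 ± 0.38 (limma adjusted p = 0.0372). Gch1 lost the call in 6 of the 12 fits without 1 array, at 0.0528 to 0.136: those without unstrained 1 h replicate 2 or 3, strained 24 h replicate 2, or any unstrained 24 h array. Ddah2, which breaks down an inhibitor of the synthases, fell by 1.33 ± 0.24 with time in strained fascicles (adjusted p = 0.00185) and by 1.21 ± 0.24 in unstrained fascicles (adjusted p = 0.00411). In strained fascicles Asl, which renews arginine, rose by 0.46 ± 0.09 (adjusted p = 0.00327), and Slc7a1, an arginine transporter, fell by 0.53 ± 0.11 (adjusted p = 0.00357). Qdpr, which recycles the cofactor, rose by 0.59 ± 0.15 (adjusted p = 0.0169), a call lost without strained 1 h replicate 1 or 3 or strained 24 h replicate 2 (0.0590 to 0.0795).

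The list of NF-kB subunits and inhibitors also holds the coactivator Nfkbiz and the mRNA decay genes Zfp36 and Zc3h12a. Its 9 genes on the array were all kept. For strain at 1 h, 9 of 9 had a log2 fold change above 0, as did 49.6% of all kept probes, and the list median was 0.33, but 0 were called. Zfp36 and Zc3h12a, whose products break down cytokine mRNAs including that of Il6 in mouse, stood at 0.78 ± 0.25 and 0.49 ± 0.13 (limma adjusted p = 0.964 and 0.882). Nfkbiz, a coactivator for Il6 in mouse macrophages, had 90.2, 81.6 and 84.1 units in strained and 61.2, 54.1 and 60.0 units in unstrained fascicles at 1 h, a difference of 0.55 ± 0.11 (adjusted p = 0.537, and 0.137 with the replicate block at 1 h). Nfkbie, an inhibitor, stood at 0.33 ± 0.09 (adjusted p = 0.773), and these 4 comparisons were chosen after their values were seen. For strain at 24 h, 7 of 9 lay above 0, as did 53.0% of all kept probes, with a median of 0.06, and 0 were called. Called for strain were 2.34% of all kept probes at 24 h and 0.0% at 1 h.

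With time, 3 of the 9 genes of this list were called lower and 0 higher in strained fascicles, against 8.52% and 12.2% of all kept probes. In unstrained fascicles 2 were called lower and 1 higher, against 7.42% and 9.83%. Zfp36 fell by 3.08 ± 0.25 in strained fascicles (limma adjusted p = 2.09e-05) and by 2.30 ± 0.25 in unstrained fascicles (adjusted p = 1.37e-04). It had 270.1, 160 and 145 units in strained fascicles at 24 h and 1428, 1195 and 2220.3 units at 1 h. Nfkbiz fell by 0.61 ± 0.11 in strained fascicles (adjusted p = 0.00220), and Nfkbie rose by 0.37 ± 0.09 in unstrained fascicles (adjusted p = 0.0121). Rela, the subunit p65, fell by 0.53 ± 0.15 in strained and 0.61 ± 0.15 in unstrained fascicles (adjusted p = 0.0259 and 0.0157). The first of these Rela calls was lost without strained 1 h replicate 1 or 3 or strained 24 h replicate 2 or 3 (0.0546 to 0.0973), and the second without unstrained 1 h replicate 3 or unstrained 24 h replicate 1 (0.0621 and 0.0716).

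Of the 13 kept genes of IL-1, TNF and Toll-like receptor signalling, 0 were called for strain. The share of all kept probes was 2.34% at 24 h and 0.0% at 1 h. Over time, 8.52% of all kept probes fell and 12.2% rose in strained fascicles, and 7.42% fell and 9.83% rose in unstrained fascicles. In strained fascicles over time, 3 fell and 0 rose: the adaptor Myd88 by 0.49 ± 0.08 (limma adjusted p = 0.00128), the TNF receptor gene Tnfrsf1a by 0.74 ± 0.14 (adjusted p = 0.00337) and the kinase Irak1 by 0.44 ± 0.12 (adjusted p = 0.0239). In unstrained fascicles 1 rose and 2 fell: the receptor for bacterial lipopolysaccharide, Tlr4, rose by 0.41 ± 0.10 (adjusted p = 0.0117), Irak1 fell by 0.50 ± 0.12 (0.0144) and Myd88 by 0.32 ± 0.08 (0.0179). The call of Myd88 in unstrained fascicles was lost without unstrained 1 h replicate 2 or 3 or unstrained 24 h replicate 1 or 2 (0.0536 to 0.0686), and that of Tlr4 without unstrained 24 h replicate 1 (0.0510). Irak1 lost its call in unstrained fascicles without unstrained 1 h replicate 3 or unstrained 24 h replicate 2 (0.0602 and 0.0514), and in strained fascicles without strained 1 h replicate 2 or 3 or any strained 24 h array (0.0508 to 0.0920).

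Tendon markers were bright, with 6 of 10 listed genes on the array and all 6 kept. Their summed intensity was 21537 to 32373 units in strained and 26838 to 33058 units in unstrained fascicles at 24 h, and 40368 to 57054 units in strained and 38593 to 56609 units in unstrained fascicles at 1 h, against 342 units with each at the array median. With time, 5 of 6 were called lower in strained and 2 of 6 in unstrained fascicles, against 8.52% and 7.42% of all kept probes. In both conditions 0 of 6 had a log2 fold change above 0, with medians of -1.04 and -0.70. For the difference 0 of 6 were called, so these counts do not show an effect of strain. Fmod, the collagen-binding proteoglycan fibromodulin, fell by 1.63 ± 0.24 in strained (limma adjusted p = 6.07e-04) and 1.27 ± 0.24 in unstrained fascicles (adjusted p = 0.00332). In strained fascicles the proteoglycan decorin, Dcn, fell by 0.56 ± 0.09 (adjusted p = 0.00130), tenomodulin, Tnmd, by 1.39 ± 0.33 (0.0106) and the collagen chain Col1a2 by 0.69 ± 0.18 (0.0161). The Tnmd call was lost without strained 24 h replicate 2 (0.0510), and that of Col1a2 without strained 1 h replicate 3 or strained 24 h replicate 2 (0.0512 and 0.0528). Col1a1 was the other called gene in unstrained fascicles, at -3.26 ± 0.84 (0.0191), a call lost without unstrained 1 h replicate 2 or 3 or unstrained 24 h replicate 1 or 2 (0.0512 to 0.0851), and the fifth in strained fascicles. The complement genes C1qa, C1qb and C1qc, made by macrophages, fell too: C1qa by 1.22 ± 0.23 in strained (adjusted p = 0.00302) and 1.76 ± 0.23 in unstrained fascicles (adjusted p = 4.50e-04), C1qc by 2.11 ± 0.21 in strained (6.18e-05) and 2.59 ± 0.21 in unstrained fascicles (1.64e-05), and C1qb by 2.83 ± 0.27 in strained (adjusted p = 4.93e-05) and by 3.18 ± 0.27 in unstrained fascicles (adjusted p = 2.06e-05), while Adgre1 rose by 0.77 ± 0.13 in unstrained fascicles (adjusted p = 0.00170). The leucocyte marker Ptprc was below the filter, at 47.2 to 63.4 units on the 12 arrays. The part of these cells in the time effects on Ccl20 and Nos2 was not tested.

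Of the neutrophil markers, only Lcn2 and S100a8 were kept. Mpo and S100a9 lay between 45.1 and 60.3 units on all 12 arrays. Lcn2, the siderophore-binding protein lipocalin-2, which epithelial and connective tissue cells also make, had 6212, 7155 and 4915 units at 24 h and 523, 102 and 93.5 units at 1 h in unstrained fascicles, higher by 5.14 ± 0.81 on the log2 scale (limma adjusted p = 0.00127). In strained fascicles it was 2.68 ± 0.81 (adjusted p = 0.0345), a call lost without strained 1 h replicate 2 or 3 or any strained 24 h array (0.0564 to 0.139). At 24 h strained fascicles had 1204, 1674 and 844 units, all below the unstrained arrays. The log2 fold change was -2.33 ± 0.81 and did not pass in the main fit (limma adjusted p = 0.197). The 12 fits without 1 array gave adjusted p-values of 0.0549 to 0.403. Over all 20 alternative limma fits they ran from 2.21e-05 to 0.403, so the call depended on the model. This comparison was chosen after its values were seen. Markers of T cells, endothelium, smooth muscle and pericytes, mast cells and skin epithelium summed, list by list, to 199.8 to 325 units in every array, against 228 to 342 units with each gene at the array median. None of their kept genes was called, and the smallest p-values for strain belonged to Cd3e for T cells, Tie1 for endothelium, Des and Notch3 for smooth muscle and pericytes, and Hdc for mast cells, with limma adjusted p-values of 0.928 (24 h), 0.981 (1 h), 0.260 (24 h), 0.981 (1 h) and 0.231 (24 h).

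The genes whose pattern over the 12 arrays was most like that of each member are given by Pearson correlation of log2 intensities among named, kept genes, as a description over arrays that share groups and, at 1 h, replicate pairs. Nearest to Ccl20 were Marchf3, a ubiquitin ligase (r = 0.967), Dgat2, an enzyme of triglyceride synthesis (r = 0.963), Gch1 (r = 0.950), Zfp354a, a zinc finger gene (r = 0.931), and Lcn2 (r = 0.928). Nearest to Nos2 were Ccng1, a cyclin G gene induced by p53 (r = 0.949), Csf3 (r = 0.947), Tll1, a procollagen proteinase (r = 0.938), Itgam, the leucocyte integrin CD11b (r = 0.936), and Snx10 (r = 0.934). Marchf3 had a geometric mean of 182 units in strained and 289.5 units in unstrained fascicles at 24 h.

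**Figure D4:**
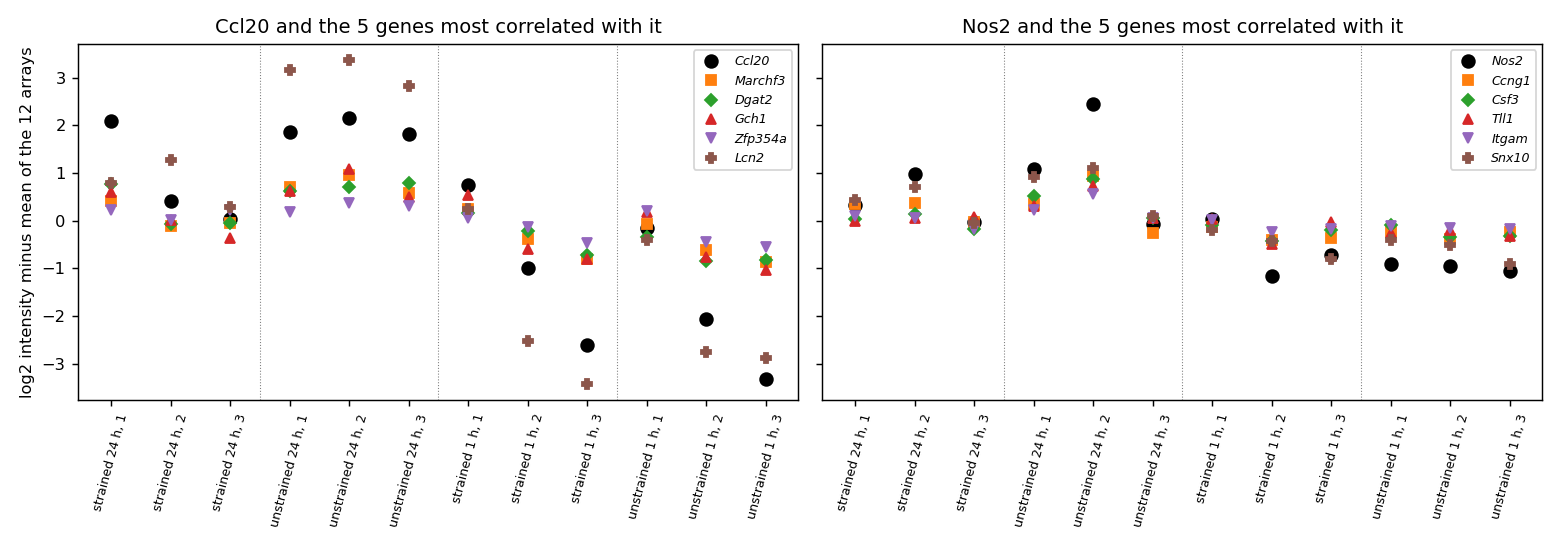
Log2 intensity minus the mean of the 12 arrays for Ccl20 (left) and Nos2 (right), in black, and for the 5 genes most correlated with each, by group and replicate number. Lcn2 spans 3.37 to -3.42 and Ccl20 2.15 to -3.32, and all 6 genes of the Nos2 panel are highest in unstrained 24 h replicate 2.

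Il6 was closest to Slc16a1, a lactate transporter (r = 0.907), Ddit4, a stress-induced inhibitor of mTOR (r = 0.906), Arhgap8 (r = 0.883), Gadd45a, a DNA damage gene (r = 0.882), and Vcam1, a leucocyte adhesion molecule (r = 0.880). Slc16a1 had geometric means of 814 units in strained and 1364 units in unstrained fascicles at 24 h, and 805 units in strained and 768 units in unstrained fascicles at 1 h. Closest to Ccl2 were Taf1d (r = 0.921) and Bmp2, a bone morphogenetic protein (r = 0.911), followed by Tex10, Trmt61a and Ccnh (r = 0.886, 0.884 and 0.879). Bmp2 had geometric means of 273 units in strained and 137 units in unstrained fascicles at 24 h, and 317 units in strained and 204 units in unstrained fascicles at 1 h. Cxcl1 was nearest to Nol10 (r = 0.924), Abt1 (0.904), Ints12 (0.897), Rnd1 (0.888) and Riok1 (0.881). For Nol10 the geometric means were 158 units in strained and 140.3 units in unstrained fascicles at 24 h, and 152 units in strained and 140.3 units in unstrained fascicles at 1 h.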

How the data were processed

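Per the labels' protocols, total RNA was extracted with Trizol, cleaned with DNase treatment on columns and labelled with biotin. The values were the authors' deposited table of intensity values, 1 per probe and array, on a linear scale and already normalized between arrays, since every array holds nearly the same set of values (ranked values are within 0.0928% of the first array's). The sources used here do not give the software, the background step or the annotation build. Another deposited table, with 24 columns of per-sample values named only by number, was not used.

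Intensities were taken as log2, with no further normalization, and probes below the median of mean log2 intensity were left out. The lowest kept probe had a geometric mean of 56.2 units. Background that remains in the values makes fold changes of dim probes too small. Symbols came from the platform annotation, where 13787 probes have 1 symbol and 8730 are unnamed here, and 13747 were matched by Entrez identifier to assembly GRCr8, with 0 symbols differing. Where a listed gene had more than 1 probe, the brightest on average stood for it.

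Differences were tested two-sided with limma 3.58.1 (R 4.3.3), fitting 1 mean for each of the 4 groups to the 12 arrays by lmFit and eBayes (residual df 8, prior df 4.08), with Benjamini-Hochberg adjustment over 11258 probes. There were 5 comparisons: strain at each time, their difference, and 24 h against 1 h in unstrained and in strained fascicles. Comparisons that share arrays are not independent. Errors are SE unless given as SD.

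At 1 h the correlations of same-numbered arrays were accepted as pairing, since each was over 0.1, and at 24 h, at 0.0387, 0.309 and 0.388, they were not. This rule does not show that the arrays at 24 h were unpaired. The members, the gene lists and the tests were chosen with earlier results of these data known. From each list, called genes were named, up to 4 per comparison and direction, and with none called the 2 of smallest p for strain. Genes outside this rule are marked as chosen after their values were seen. Promoter sequences are from RefSeq, assembly GRCr8. Figures were drawn with matplotlib 3.10.9.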

Additional observations from a re-analysis of the deposited data

How the results depend on the processing

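Of 505 alternative values for the 5 genes, 472 kept their direction and side of the threshold. The calls of Ccl20 and Nos2 for time in unstrained fascicles held in every alternative run, at adjusted p-values up to 0.0432 and 0.0414. A replicate block inside each time also pairs the arrays at 24 h, where not every same-numbered correlation passed the check for pairing. It leaves the spread between pairs out of the time comparisons. It brought further calls: for strain at 24 h Il6 -1.31 (adjusted p = 0.0235), Ccl2 0.49 (0.0266) and Ccl20 -1.10 (0.0442), for the difference Il6 -2.19 (0.0289) and Ccl20 -1.99 (0.0389), for time in unstrained fascicles Il6 1.67 (0.00165), and for time in strained fascicles Ccl20 1.79 (7.35e-04) and Nos2 1.05 (0.00696). With the replicate block over all 12 arrays, Il6 passed for time in unstrained fascicles (1.67; 0.00896) and Ccl20 in strained fascicles (1.79; 0.0204). The replicate block changed no other member's call. With only the groups compared in the fit, Il6 passed in unstrained fascicles (1.67; 0.0377). Array weights turned Cxcl1 to 0.17 for strain at 1 h, -0.0052 for the difference and -0.017 for time in strained fascicles.

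Without 1 array at a time, Cxcl1 ranged from -0.46 to 0.39 for strain at 1 h, -0.28 to 0.37 at 24 h, -0.31 to 0.54 for the difference, -0.28 to 0.36 for time in unstrained and -0.32 to 0.53 in strained fascicles. For time in strained fascicles Il6 ranged from -1.11 to 0.19, Ccl2 from -0.20 to 0.12 and Ccl20 from 0.97 to 2.64. Cxcl2 ranged from -1.04 to 0.086 for time in unstrained fascicles, turning sign without unstrained 1 h replicate 1. Of 49 calls for other named genes, 29 held without any single array and 20 did not.

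Counts of called probes moved too. For strain at 1 h they were 1 with a variance trend and robust estimation, 23 with the replicate block within each time, 12 with the block at 1 h only, an alternative chosen after seeing the data, and 0 to 2 without an array. For strain at 24 h, 263 became 558 with array weights, 882 with the block within each time and 69 to 307 without an array, lowest without strained 24 h replicate 2. For the difference, 9 became 19 with the trend, 184, 30 and 80 with the replicate block within each time, over all arrays and at 1 h only, and 7 to 16 without an array. For time the counts without an array were 1227 to 2117 in unstrained and 1691 to 2376 in strained fascicles.

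With 3 arrays a group, intervals of the 5 genes span up to several log2 units, so a miss of the threshold does not show that a gene did not change. Nos2 and other probes near the array median carry background, and detection p-values were not used.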
